A study of Mus musculus with 28 samples.

Results

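WT satellite cells kept for 24 hours in differentiation medium (WT_Diff, 2 RNA-seq libraries) were set against WT satellite cells measured fresh and quiescent (WT_FI, 3 RNA-seq libraries). These 5 samples, out of 28 in the series and 18 RNA-seq libraries, were chosen by their labels alone: the WT condition of the table of differentiating cells and the WT condition of the table of freshly isolated cells. The question is how 2 states that both lie outside growth by their labels differ from each other. All cells were satellite cells of mice on a C57Bl/6 background, isolated by FACS. WT_FI cells were sequenced as isolated. WT_Diff cells had been cultured and then placed in Hams F-10 medium with 2% horse serum for 24 hours. Proliferating WT cells (WT_Cul, 2 libraries), grown in Hams F-10 with bFGF at 12.5 ng/ml and 20% fetal bovine serum, show where growing cells lie. KO_FI (3 libraries) and KO_Diff (2 libraries) come from SIRT1mKO mice, in which Cre from 1 Pax7 allele removes the floxed exon 4 of Sirt1 in cells of the Pax7 lineage, and they carry the same contrast in other libraries. A library is named by its group and its index in the deposited table, which counts from 0.

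Satellite cells are the stem cells of skeletal muscle and lie beside the muscle fibre under its basal lamina. In resting muscle they are quiescent, express the transcription factor Pax7 and depend on Notch signalling. When activated they divide as myoblasts that express Myod1, and on withdrawal of growth factors they switch on Myog, leave the cell cycle, build the contractile apparatus and fuse into fibres. Quiescence and differentiation are thus both states without division, of which quiescence is reversible.

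Depth was 28010691 to 55138738 fragments in the WT_FI libraries and 71858446 to 82825550 in the WT_Diff libraries. Levels are CPM, fragment counts relative to library size, on a scale shared by all libraries. Whether the libraries of a group stem from different animals or cultures is not in the labels, so a p-value here reflects the scatter of these libraries, part of which may be technical. The 2 states lie in separate deposited tables, so state and table cannot be told apart. Xist, expressed from the inactive X chromosome of female cells, stood at 2072, 1819 and 859.9 CPM in FI libraries 0, 1 and 2 and at 1404 and 0.354 CPM in Diff libraries 0 and 1, and the Y-linked Ddx3y at 69.9, 19.6 and 103 and at 32 and 43.8 CPM. Each of these libraries except Diff library 1 thus held both a female and a male transcript. The library labelled WT_Diff 0 went against its label in several measures: Myog stood at 69.6 CPM, below the 207 CPM of FI library 1, the contractile genes summed to 1162 CPM against 1132, 1366 and 1769 CPM in FI, and the G1/S and G2/M genes to 6449 and 4559.5 CPM, between the sums of the 2 libraries of growing cells. Groups are therefore called by their labels below, and results that rest on this library or on Diff library 1 are given without it. In the FI table, library 0 stood apart for a set of genes: of 7459 genes with at least 20 CPM in FI libraries 1 and 2, 208 lay more than 5-fold below the lower of these in FI library 0. Of these 208 genes, 204 were as low in KO_FI library 0 and 1 and 0 were in KO_FI libraries 1 and 2, and 194 and 193 were in the 2 WT_FI libraries of the table of WT states, which are used below only as an alternative FI group. Gapdh, a glycolytic enzyme with many near-identical copies in the genome, stood at 0.809, 564 and 411 CPM in the FI libraries and at 0.468 and 0.495 CPM in those 2. Of the 208 genes, 10 are members of the gene lists below, and their differences are uncertain. They are Gapdh, Pgk1, Pgam1, Eno1, Cox5b, Hadhb, Idi1, Fdps, Fbl and Gabarapl2.

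WT_Diff differed from WT_FI in a large share of the transcripts. Of 15756 genes tested, 2734 were higher in WT_Diff (17.4%) and 3181 were lower (20.2%), together 5915 (37.5%), by edgeR's quasi-likelihood test with Benjamini-Hochberg adjustment at 0.05. Of the called genes, 5687 had an estimate past 2-fold. The median log2 difference over all genes tested was -0.02. Values of all 5 libraries did not overlap between the groups for 10427 genes (66.2%). Both Diff libraries lay above every FI library for 4940 of the 15756 genes and below every FI library for 5487. These are the background for the counts of non-overlapping genes in each direction below. The number of calls rested on the FI libraries: it was 3454, 3271 and 2067 without FI library 0, 1 or 2 in turn. Of the 15756 genes, 15422, 15500 and 15385 were tested again in these fits. Of them 1189, 1287 and 543 were higher and 2265, 1984 and 1524 lower. These are the background for the list counts without an FI library, since calls fell over all genes. By limma voom with quality weights it was 2487. Without Diff library 0 it was 7836 and without Diff library 1 it was 6519, where the lone Diff library is assumed to vary like the FI libraries. The deposited table of WT states holds 2 further WT_FI libraries, outside the chosen groups, in which Pax7 stood at 135 and 116 CPM and the fibroblast collagen Col1a1 at 8003 and 5150.1 CPM, against 974, 766 and 793 and 1016, 554 and 691 CPM in the 3 chosen ones. With these 2 as the FI group, 2497 genes were higher in WT_Diff and 2831 lower, and calls that did not hold against them are named below. In bulk RNA, fewer cells of a type and less RNA per cell cannot be told apart. Limma voom called 1291 of 15756 genes higher and 1196 lower, the background for its counts by list. Its higher calls numbered 6 of 41 for the sarcomere list, 4 of 16 for fusion, 14 of 24 for G1/S and 17 of 22 for G2/M. They numbered 9 of 27 for oxidative phosphorylation, 2 of 21 for glycolysis, 6 of 25 for fatty acid oxidation and 7 of 19 for sterol synthesis. Ribosome biogenesis had 2 of 23 and p53 targets 4 of 19. The glycolysis and ribosome biogenesis counts were near the share over all genes. Lower calls by limma voom numbered 15 for the quiescent list, 18 for immediate early and heat shock genes, 4 for NF-kB targets, 5 for interferon response, 7 for Notch, 22 for extracellular matrix and 6 for the IGF axis. Against the 2 other FI libraries, higher calls numbered 13 for oxidative phosphorylation, 5 for fatty acid oxidation and 17 for ribosome biogenesis. Lower calls against them numbered 12 for the quiescent list (median -1.80), 15 for immediate early and heat shock genes and 9 of 15 tested for Notch. They numbered 6 for NF-kB targets, 14 for interferon response, 23 for extracellular matrix and 7 for the IGF axis. Gene lists are described by how many of their tested members were called, and the plot of called members by list shows them side by side.

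**Figure D1:**
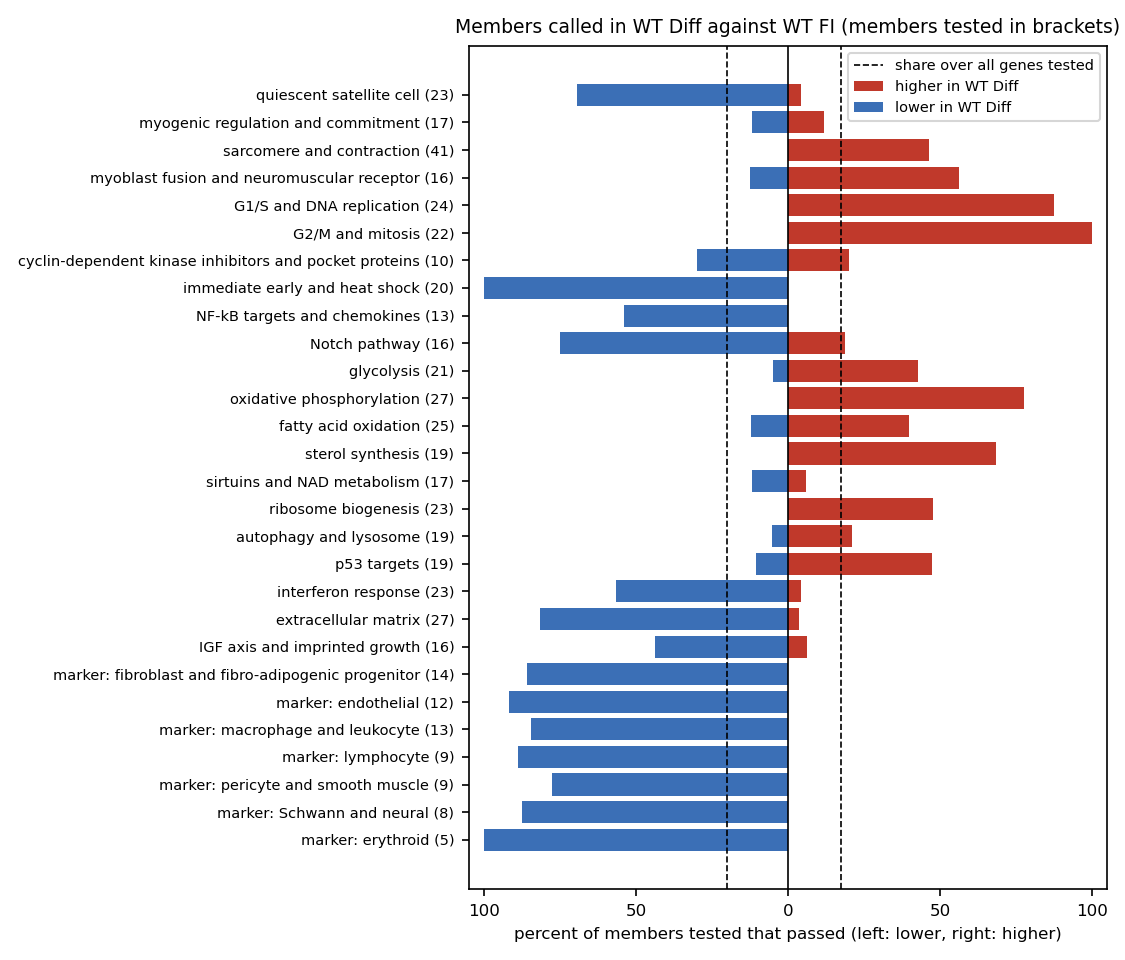
Percent of the tested members of each gene list that passed the test in WT Diff against WT FI, with lower calls to the left and higher calls to the right; dashed lines mark the share over all genes tested (17.4% higher and 20.2% lower). All 22 tested members of the G2/M list were higher and all 20 of the immediate early and heat shock list were lower.

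The muscle stem cell factors fell and Myod1 rose, while the level of Myog depended on the library. Pax7, the transcription factor that defines satellite cells, stood at 974, 766 and 793 CPM in the FI libraries and at 86.9 and 40.9 CPM in the Diff libraries. Pax7 fell by 3.72 on the log2 scale (SE 0.51, edgeR adjusted p = 0.00726), and WT_Cul at 123 and 119.9 CPM was also low. Myf5, a determination factor of the muscle lineage, stood at 269, 300.5 and 275 CPM in FI and 51.8 and 45.8 CPM in Diff and fell by 2.53 (SE 0.28, edgeR adjusted p = 0.00486). Its level in WT_Cul, 177 and 84.7 CPM, lay between those of the 2 states. The Pax7 call was lost against the 2 other FI libraries (edgeR adjusted p = 0.169). The Myf5 call was lost against the 2 other FI libraries (edgeR adjusted p = 0.388). Myod1, the determination factor of activated cells, stood at 128, 232 and 124 CPM in FI and 1184 and 2490 CPM in Diff, a log2 difference of 3.51 (SE 0.53, edgeR adjusted p = 0.00873). Both Diff libraries lay above every FI library, and WT_Cul reached 2548 and 2239.5 CPM. Myog, the factor that starts terminal differentiation, stood at 37.6, 207 and 34.2 CPM in FI libraries 0, 1 and 2 and at 69.6 and 2210.2 CPM in Diff libraries 0 and 1. Diff library 0 thus lay below FI library 1, the groups overlapped, and the log2 difference of 3.62 did not pass (SE 1.47, edgeR adjusted p = 0.102). Without Diff library 1 it was -0.41 (edgeR adjusted p = 0.804), and without Diff library 0 it was 4.58 (edgeR adjusted p = 0.0316). Sirt1, a deacetylase that uses NAD and the gene deleted in the KO animals, stood at 74.9, 46.6 and 43.6 CPM in FI and 59.3 and 30.9 CPM in Diff, a log2 difference of -0.29 that did not pass (SE 0.41, edgeR adjusted p = 0.606).

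**Figure D2:**
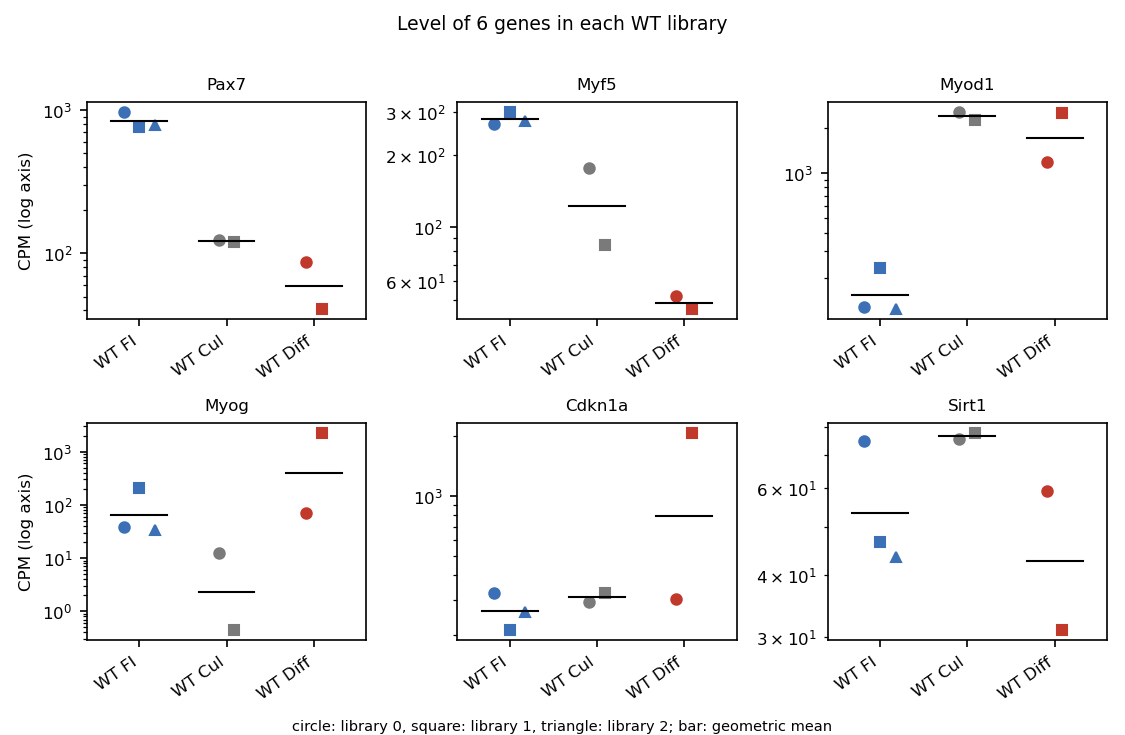
CPM on a log axis of 6 genes in each WT library of freshly isolated (FI), proliferating (Cul) and differentiating (Diff) cells; symbols mark the library index and bars the geometric mean. Pax7 and Myf5 are high in FI, Myod1 is high in Cul and Diff, and Myog and Cdkn1a are high in Diff library 1, at 2210.2 and 2055 CPM.

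Over the list of myogenic regulation and commitment, 2 of 17 tested members were higher and 2 lower, with a median log2 difference of 0.04. Both counts were below the shares over all genes tested, 17.4% higher and 20.2% lower. These counts depended on the libraries: 6 were higher and 2 lower without Diff library 0, 3 higher and 4 lower without Diff library 1 (median -0.41), and 7 higher and 2 lower against the 2 other FI libraries (median 1.74). In KO, 7 of 17 were higher. Tead4, a transcription factor of differentiating myoblasts, stood at 2.297, 2.86 and 2.29 CPM in FI and 12.7 and 80.6 CPM in Diff (log2 difference 4.23, SE 0.77, edgeR adjusted p = 0.0127). Eya2, a transcriptional cofactor, fell by 3.76 (SE 0.70, edgeR adjusted p = 0.0134) from 11.7, 6.84 and 6.69 to 0.311 and 0.934 CPM. The Tead4 call was lost without FI library 1 or 2 (edgeR adjusted p = 0.0505 and 0.0538, in that order). Des, which encodes the muscle intermediate filament desmin, stood at 920.5, 1063 and 743 CPM in FI and 1470.2 and 3738 CPM in Diff and did not pass (edgeR adjusted p = 0.0652), although its libraries did not overlap. Of the satellite cell markers, Itga7 and Cdh15 did not pass: Itga7, the laminin receptor subunit used to sort these cells, stood at 703, 810.1 and 730.4 CPM in FI and 899 and 1276 CPM in Diff, and Cdh15, the M-cadherin of satellite cells and myoblasts, at 434, 514 and 396 CPM in FI and 167 and 334 CPM in Diff. Both states thus held RNA of these markers of the muscle lineage. By limma voom Eya2 did not pass (adjusted p = 0.0599).

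Most genes of the quiescent satellite cell list were lower in WT_Diff. Of 23 tested members of its list, 16 were lower and 1 was higher, and the median log2 difference was -3.22. In 21 of 23 members both Diff libraries lay below every FI library. Chrdl2, which encodes a secreted chordin-like protein, stood at 341, 402 and 276 CPM in FI and at 2.42 and 1.79 CPM in Diff and fell by 7.33 (SE 0.44, edgeR adjusted p = 0.00375). Calcr, the calcitonin receptor that marks quiescent satellite cells, stood at 302, 216 and 227 CPM in FI and 3.46 and 0.3702 CPM in Diff and fell by 7.01 (SE 1.14, edgeR adjusted p = 0.009803). Both genes were at most 3.46 CPM in the Diff libraries, far below every FI library. Spry1, an inhibitor of receptor tyrosine kinase signalling needed for return to quiescence, stood at 886, 1039 and 908 CPM in FI and 15.1 and 19.4 CPM in Diff and fell by 5.78 (SE 0.44, edgeR adjusted p = 0.00375). Gas1, a growth arrest protein of the cell surface, stood at 1262, 1702 and 1421 CPM in FI and 44.9 and 32.8 CPM in Diff and fell by 5.23 (SE 0.48, edgeR adjusted p = 0.00388). In WT_Cul, Spry1 was at 36.3 and 37.3 CPM and Calcr at 1.12 and 2.26 CPM, so both were low in growing cells too. The exception was Sdc3, a heparan sulphate proteoglycan of satellite cells, named after its values were seen, which stood at 127, 90.3 and 97.2 CPM in FI, 219 and 229 CPM in Diff and 676 and 345 CPM in WT_Cul and was higher in Diff (log2 difference 1.09, edgeR adjusted p = 0.0259). The Sdc3 call was lost without FI library 1 or 2 or against the 2 other FI libraries (edgeR adjusted p = 0.0964, 0.132 and 0.513, in that order). Cd34, Vcam1, Foxo3, Itga7, Ndrg2 and Pdk4 were not called. Cd34, a surface sialomucin, stood at 412, 359 and 323 CPM in FI and 199.6 and 32.2 CPM in Diff, and Vcam1, an adhesion receptor, at 526, 505 and 414 CPM in FI and 271 and 41.3 CPM in Diff. Both Diff libraries thus lay below every FI library for both genes, and without Diff library 0 both were called lower, at -3.50 and -3.54 (edgeR adjusted p = 0.00655 and 0.0071). Sdc3 did not pass by limma voom (adjusted p = 0.0905).

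In Notch signalling a ligand on a cell triggers cleavage of a receptor on its neighbour, which then turns on Hes and Hey repressors. RNA of most genes of the pathway was lower in WT_Diff, while signalling itself was not measured. Rbpj had no usable estimate in 2 libraries of the Diff table and was left out. Of 16 tested genes of the pathway, 12 were lower and 3 were higher, with a median log2 difference of -3.28. Among the ligands, Jag1 stood at 161, 146 and 246 CPM in FI and at 17.8 and 5.23 CPM in Diff, and Dll4, which endothelial cells also express, at 9.803, 3.36 and 17.03 CPM in FI and 0.0647 and 0.0322 CPM in Diff. Both fell, by 4.00 and 7.60 on the log2 scale (edgeR adjusted p = 0.0103 and 0.00761), and both were named after their values were seen. Among the receptors, Notch3, which pericytes also express, stood at 2561, 1809 and 2402 CPM in FI and 59.95 and 37.4 CPM in Diff and fell by 5.54 (SE 0.55, edgeR adjusted p = 0.00423), and Notch1 stood at 402, 268 and 362 CPM in FI and 35.1 and 32.4 CPM in Diff and fell by 3.35 (SE 0.35, edgeR adjusted p = 0.00435). Among the targets, Heyl stood at 806, 1028 and 843 CPM in FI and 8.002 and 19.2 CPM in Diff, a fall of 6.04 (SE 0.62, edgeR adjusted p = 0.00436). Nrarp, a feedback inhibitor induced by Notch, stood at 28.4, 33.4 and 84.6 CPM in FI and 0.414 and 0.612 CPM in Diff, a fall of 6.57 (SE 0.76, edgeR adjusted p = 0.00534). The 3 members that were higher were also named after their values were seen. Hes6, which antagonises Hes1 and is expressed in differentiating myoblasts, stood at 31.5, 43.8 and 25.6 CPM in FI and 205 and 1654 CPM in Diff (log2 difference 4.79, SE 0.90, edgeR adjusted p = 0.0135). Jag2, a ligand, had a log2 difference of 1.48 and Lfng, which glycosylates Notch receptors, of 1.66. The Hes6 call was lost without FI library 1 or 2 (edgeR adjusted p = 0.0509 and 0.0579, in that order). The Jag2 call was lost without Diff library 1 or without FI library 0, 1 or 2 (edgeR adjusted p = 0.05697, 0.0921, 0.1097 and 0.106, in that order). The Lfng call was lost without FI library 0, 1 or 2 or against the 2 other FI libraries (edgeR adjusted p = 0.0698, 0.0638, 0.0685 and 0.136, in that order). Higher calls of the pathway numbered 1, 0 and 0 without FI library 0, 1 or 2. Summed markers of endothelial cells and pericytes, which also use Notch, were likewise higher in FI, with the values given under those markers, and their part in these falls was not tested. With limma voom the test was not passed by Dll4, Nrarp, Jag2 and Lfng (adjusted p = 0.147, 0.116, 0.07401 and 0.0517, in that order).

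Contractile RNA in sum was far above the quiescent level in Diff library 1 and within the quiescent range in Diff library 0. Of 41 tested members of the sarcomere and contraction list, 19 were higher and 0 were lower, with a median log2 difference of 4.87. All 41 were higher in Diff library 1 than in Diff library 0, with a median ratio of 93.3. The summed level of the list was 1132, 1366 and 1769 CPM in FI libraries 0, 1 and 2, 1162 and 24389 CPM in Diff libraries 0 and 1, and 905 and 382 CPM in WT_Cul. The count therefore rested on Diff library 1: without it 8 members were higher and 12 lower, with a median of -0.79, and without Diff library 0 35 were higher. Without FI library 0, 1 or 2 in turn, 7, 3 and 3 were higher. The 2 other FI libraries had summed levels of 4948 and 5918 CPM, and against them 7 members were higher and 1 lower. KO_Diff showed the same split by index, with a summed level of 1589 and 55969 CPM in libraries 0 and 1 against 1339, 1145 and 1062 CPM in KO_FI.

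The upstream DNA of 3 of these genes is shown because they are described next and hold examples of the motifs known from muscle promoters. RefSeq windows of GRCm38.p6 were used for the 250 bases before the annotated start, read in the direction of the gene. The motifs were the E-box CAGCTG, which myogenic bHLH factors bind, the MEF2 box and the CArG box, which serum response factor binds, on both strands, and overlapping matches were kept. Capitals mark the matches.
Acta1 (chr8:123894776-123895025, minus strand, with CAGCTG and a CArG box): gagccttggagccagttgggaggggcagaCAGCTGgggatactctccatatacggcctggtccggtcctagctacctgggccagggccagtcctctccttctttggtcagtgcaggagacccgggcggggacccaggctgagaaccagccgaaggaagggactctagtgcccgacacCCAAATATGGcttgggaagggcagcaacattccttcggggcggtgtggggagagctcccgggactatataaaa
Mylpf (chr7:127211358-127211607, plus strand, with CAGCTG): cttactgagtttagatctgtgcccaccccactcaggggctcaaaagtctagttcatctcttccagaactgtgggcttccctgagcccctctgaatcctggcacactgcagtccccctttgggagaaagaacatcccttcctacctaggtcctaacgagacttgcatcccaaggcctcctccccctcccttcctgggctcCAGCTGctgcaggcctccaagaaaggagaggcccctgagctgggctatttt
Ttn (chr2:76982548-76982797, minus strand, with a MEF2 box): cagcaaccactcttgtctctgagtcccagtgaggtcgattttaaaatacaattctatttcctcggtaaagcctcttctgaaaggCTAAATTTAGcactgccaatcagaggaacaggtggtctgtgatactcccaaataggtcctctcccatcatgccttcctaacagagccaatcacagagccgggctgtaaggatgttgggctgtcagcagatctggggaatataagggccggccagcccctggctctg
Of the 42 genes of the list, 34 had a window, and of their 41 windows 18 held CAGCTG (43.9%), 6 a MEF2 box (14.6%) and 6 a CArG box (14.6%). Over all 32841 windows the shares were 13.0%, 2.92% and 1.47%, and over the 13944 windows of genes tested 12.75%, 1.72% and 1.25%. They were 12.3%, 1.99% and 1.04% for the windows of genes called higher in WT_Diff and 14.9%, 2.29% and 1.56% for those of genes called lower. A match describes these letters only.

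Acta1, the actin of the skeletal muscle thin filament, stood at 27.4, 47.8 and 13.3 CPM in FI and at 52.3 and 5898 CPM in Diff libraries 0 and 1 (log2 difference 6.66, SE 1.80, edgeR adjusted p = 0.0344). Mylpf, the regulatory light chain of fast myosin, stood at 2.59, 1.504 and 1.76 CPM in FI and 15.1 and 2136 CPM in Diff (9.10, SE 1.95, edgeR adjusted p = 0.0188). For Acta1 the library 0 value was close to that of FI library 1, while for Mylpf both Diff libraries were above FI. The Acta1 call was lost without Diff library 1 or without FI library 0, 1 or 2 or against the 2 other FI libraries (edgeR adjusted p = 0.373, 0.0839, 0.0981, 0.1097 and 0.135, in that order). The Mylpf call was lost without FI library 1 or 2 or against the 2 other FI libraries (edgeR adjusted p = 0.0752, 0.0705 and 0.0556, in that order). Ttn, the giant spring of the sarcomere, stood at 11.8, 13.9 and 8.12 CPM in FI and 210.3 and 2690.2 CPM in Diff (7.01, SE 1.14, edgeR adjusted p = 0.00992). Cacng1, a subunit of the calcium channel that couples excitation to contraction, stood at 1.46, 1.77 and 0.798 CPM in FI and 109 and 554 CPM in Diff (7.94, SE 0.87, edgeR adjusted p = 0.00502). These 2 genes were above FI in both Diff libraries and kept their calls without either, at log2 differences of 4.23 and 6.34 without Diff library 1. Myom2, a protein of the M band, and Lmod3, which nucleates actin filaments, stood at 16.2 and 366 and 5.57 and 230.5 CPM in Diff, against at most 1.27 and 0.399 CPM in FI. The Myom2 call was lost without FI library 1 (edgeR adjusted p = 0.0509). The Lmod3 call was lost without FI library 1 or 2 (edgeR adjusted p = 0.0566 and 0.0506, in that order). Of the markers of differentiating muscle cells, Myh3, the embryonic myosin heavy chain, stood at 0.582, 3.13 and 0.632 CPM in FI and 1.07 and 671 CPM in Diff (log2 difference 7.87, edgeR adjusted p = 0.0445), and without Diff library 1 it was -0.42. Tnnt3, fast troponin T, stood at 4.303, 3.27 and 3.59 CPM in FI and 2.86 and 636 CPM in Diff (log2 difference 6.42, edgeR adjusted p = 0.0393), and was -0.37 without Diff library 1. The Myh3 call was lost without Diff library 1 or without FI library 0, 1 or 2 or against the 2 other FI libraries (edgeR adjusted p = 0.798, 0.104, 0.101, 0.1298 and 0.0863, in that order). The Tnnt3 call was lost without Diff library 1 or without FI library 0, 1 or 2 or against the 2 other FI libraries (edgeR adjusted p = 0.482, 0.0907, 0.129, 0.118 and 0.111, in that order). Ckm, the muscle creatine kinase, stood at 9.48, 5.69 and 4.22 CPM in FI and 0.194 and 94.4 CPM in Diff and did not pass (edgeR adjusted p = 0.233). It was below FI in Diff library 0, with a log2 difference of -5.03 without Diff library 1 (edgeR adjusted p = 0.0161), and above FI in Diff library 1, at 3.87 without Diff library 0. RNA of some contractile genes, named after their values were seen, was also found in the FI libraries. Actn3, the fast fibre actinin, stood at 146, 127 and 138 CPM in FI and at 13.1 and 258 CPM in Diff. Casq2, a calcium store protein, stood at 65.8, 64.7 and 139 CPM in FI and 1.29 and 144 CPM in Diff. Which cells of the FI libraries held this RNA was not tested. Per length, by the FPKM the authors scaled within the Diff table, Diff library 1 held 4114 of Acta1 and 3324 of Mylpf. Among its myosin heavy chains, per length, the order was Myh3 at 99.4, Myh1 at 83.4, Myh8 at 30.1, Myh7 at 2.604 and Myh4 at 1.102 FPKM, so the developmental forms Myh3 and Myh8 stood with the adult fast form Myh1. This order rests on 1 library, and near-identical stretches of these genes may share fragments. The limma voom test was not passed by Acta1, Mylpf, Lmod3, Myh3 and Tnnt3 (adjusted p = 0.144, 0.0816, 0.0581, 0.292 and 0.298, in that order).

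Genes of myoblast fusion and of the neuromuscular receptor were higher in both Diff libraries for several members. Of 16 tested, 9 were higher and 2 lower, with a median log2 difference of 2.88. Chrna1, the alpha subunit of the muscle acetylcholine receptor, stood at 89.97, 112 and 89.7 CPM in FI and 896 and 2071 CPM in Diff (log2 difference 3.93, SE 0.48, edgeR adjusted p = 0.00591). Chrnd, its delta subunit, stood at 0.728, 2.48 and 0.732 CPM in FI and 81.99 and 364 CPM in Diff (7.42, SE 0.97, edgeR adjusted p = 0.0066). Both receptor genes were already high in WT_Cul, at 1259 and 699 and 73.1 and 130.4 CPM. Cdh2, the N-cadherin through which myoblasts adhere, stood at 18.5, 28.8 and 30.2 CPM in FI and 163 and 147 CPM in Diff (2.59, SE 0.30, edgeR adjusted p = 0.00537), and Myof, a membrane fusion and repair protein, at 41.9, 23.1 and 57.4 CPM in FI and 494 and 247 CPM in Diff (3.18, SE 0.51, edgeR adjusted p = 0.009396). Without Diff library 1 the members called higher numbered 5, with a median of 0.94, and without FI library 0, 1 or 2 they numbered 6, 5 and 4. By limma voom Myof did not pass (adjusted p = 0.0584).

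**Figure D3:**
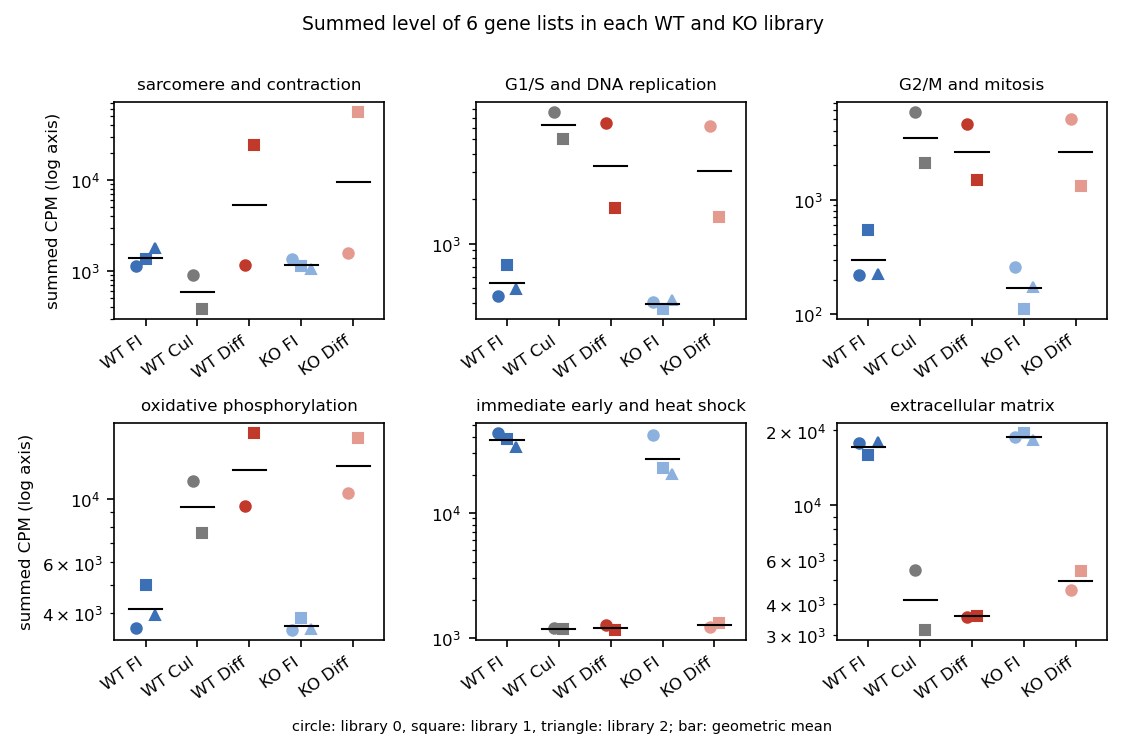
Summed CPM on a log axis of 6 gene lists in each WT and KO library of freshly isolated (FI), proliferating (Cul, WT only) and differentiating (Diff) cells; symbols mark the library index and bars the geometric mean. Contractile RNA is high in Diff library 1 of both genotypes, cell cycle RNA is higher in Diff library 0 than in library 1, and immediate early RNA is high in FI.

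Cell cycle genes were above the quiescent level in both Diff libraries, although the label of neither state is growth. Of 24 tested genes of G1/S and DNA replication, 21 were higher and 0 were lower (median log2 difference 2.76), and all 22 of 22 tested genes of G2 and mitosis were higher (median 3.43). The G1/S list summed to 446, 713 and 497 CPM in FI, 6449 and 1719 CPM in Diff libraries 0 and 1 and 7652 and 5032 CPM in WT_Cul. The G2/M list summed to 222, 540.3 and 223 CPM in FI, 4559.5 and 1486 CPM in Diff and 5808 and 2068 CPM in WT_Cul. Diff library 0 thus lay between the WT_Cul libraries for both lists, and Diff library 1 below them and above every FI library. Every one of the 24 and 22 genes was lower in Diff library 1 than in Diff library 0, with median ratios of 0.269 and 0.391. Rrm2, a subunit of the enzyme that makes deoxyribonucleotides, stood at 17.4, 19.3 and 15.96 CPM in FI and 1047 and 364 CPM in Diff (log2 difference 5.33, SE 0.54, edgeR adjusted p = 0.00433). Cdt1, which licenses replication origins, stood at 14.7, 20.2 and 11.97 CPM in FI and 204 and 107 CPM in Diff (3.31, SE 0.40, edgeR adjusted p = 0.005697). The mitotic kinases Plk1 and Aurka stood at 120.0 and 68.7 and at 75.3 and 50.9 CPM in Diff, against 3.12, 8.93 and 5.12 and 3.02, 7.49 and 3.39 CPM in FI, log2 differences of 4.05 and 3.77 (edgeR adjusted p = 0.00673 and 0.00679). Birc5, the survivin of the chromosomal passenger complex, stood at 5.05, 14.1 and 6.45 CPM in FI and 135 and 70.1 CPM in Diff (3.59, SE 0.56, edgeR adjusted p = 0.00907). FI library 1 was the highest of the FI libraries for the G2/M list and also for Myog. With FI library 0, 1 or 2 left out, higher calls numbered 9, 8 and 3 for G1/S and 16, 19 and 5 for G2/M. Without Diff library 0 the median log2 differences were 1.46 for G1/S and 2.42 for G2/M.

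Calls among the inhibitors of cyclin-dependent kinases, which hold cells out of the cycle, were near the share over all genes. Of 10 inhibitors and pocket proteins tested, 2 were higher and 3 lower. Over all genes tested, 17.4% were higher and 20.2% lower. Without FI library 0, 1 or 2, higher calls numbered 1, 1 and 0 and lower calls 3, 2 and 1. Cdkn1c, which encodes p57, stood at 66.99, 282 and 61.4 CPM in FI and 0.505 and 2.83 CPM in Diff and fell by 6.36 (SE 1.29, edgeR adjusted p = 0.0162). Cdkn1b, which encodes p27, stood at 111, 121 and 119.9 CPM in FI and 32.1 and 51.3 CPM in Diff and fell by 1.49 (SE 0.30, edgeR adjusted p = 0.0156). Rbl2, the p130 pocket protein of resting cells, stood at 85.1, 69.6 and 75.8 CPM in FI and 28.9 and 18.01 CPM in Diff and fell by 1.71 (SE 0.31, edgeR adjusted p = 0.0129). All 3 were lower in both Diff libraries than in any FI library. Cdkn2a, from the Ink4a/Arf locus, stood at 0.615, 1.95 and 0.798 CPM in FI and 8.97 and 14.9 CPM in Diff (3.42, SE 0.63, edgeR adjusted p = 0.0133). The Cdkn1b call was lost without FI library 1 or 2 or against the 2 other FI libraries (edgeR adjusted p = 0.05401, 0.0677 and 0.0519, in that order). The Rbl2 call was lost without FI library 2 (edgeR adjusted p = 0.0526). The Cdkn2a call was lost without FI library 2 (edgeR adjusted p = 0.0553). Cdkn1a, which encodes p21 and is named after its values were seen, stood at 327, 211 and 263 CPM in FI and at 304 and 2055 CPM in Diff libraries 0 and 1. The groups overlapped and it did not pass (log2 difference 2.14, SE 0.77, edgeR adjusted p = 0.0756). Cdkn1c did not pass by limma voom (adjusted p = 0.158).

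Immediate early and heat shock RNA was abundant in WT_FI and low in WT_Diff. WT_FI cells were sequenced as isolated by FACS and WT_Diff cells after culture, so state and handling cannot be told apart here. Of 25 list members, 20 could be tested and all 20 were lower in WT_Diff, with a median log2 difference of -5.08. Fos, Jun, Egr1, Hspa1a and Hspa1b had no usable estimate in at least 1 library and were left out. The list summed to 42992, 38863 and 33499 CPM in the FI libraries and to 1254 and 1145 CPM in the Diff libraries, with 1188 and 1173 CPM in WT_Cul. Fosb, a partner of Jun in AP-1 named after its values were seen, stood at 7016, 4821 and 4060 CPM in FI and 2.25 and 0.756 CPM in Diff and fell by 11.78 (SE 1.04, edgeR adjusted p = 0.00388). Socs3, an inhibitor of cytokine receptor signalling, stood at 2294, 2261 and 1909.9 CPM in FI and 5.32 and 2.704 CPM in Diff and fell by 9.07 (SE 0.68, edgeR adjusted p = 0.00375). Zfp36, which destabilises AU-rich mRNAs, and Nr4a1, an orphan nuclear receptor, stood at 3949, 4057 and 4160.3 and 4272, 3737 and 3301 CPM in FI and at 15.4 and 15.8 and 8.35 and 13.2 CPM in Diff. The lowest FI value among these 4 genes was 1909.9 CPM and the highest Diff value was 15.8 CPM. In the list of NF-kB targets and chemokines, 7 of 13 tested members were lower and 0 were higher. Il6, an inflammatory cytokine, stood at 28.2, 11.8 and 26.2 CPM in FI and 0.0647 and 0 CPM in Diff, and Nfkbiz, an inducible regulator of NF-kB, at 781, 359 and 482 CPM in FI and 15.6 and 3.78 CPM in Diff. Without FI library 1 or 2, 4 and 4 members of that list were lower, and without Diff library 0 11. Of 23 tested interferon response genes, 13 were lower and 1 was higher. Irf1, a transcription factor of that response, stood at 309, 169 and 230.2 CPM in FI and 25.2 and 12.3 CPM in Diff (fall of 3.66, SE 0.50, edgeR adjusted p = 0.00729). Oasl2, an interferon-induced protein, stood at 7.28, 8.26 and 8.55 CPM in FI and 0.8805 and 0.821 CPM in Diff. Leukocyte markers, whose sums are given with the other cell types, moved the same way as these inflammatory genes, and their part was not tested. Lower interferon calls numbered 9, 8 and 4 without FI library 0, 1 or 2. With limma voom the test was not passed by Il6 (adjusted p = 0.0565).

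Most genes of oxidative phosphorylation and part of the glycolysis list were higher in WT_Diff. Of 27 tested genes of oxidative phosphorylation, 21 were higher and 0 lower, with a median log2 difference of 1.72. All 27 lay above every FI library in both Diff libraries, among them Cox5b, which is uncertain because it was low in FI library 0. Sdhd, a subunit of complex II, stood at 55.9, 72.4 and 60.2 CPM in FI and 221 and 320.0 CPM in Diff (2.11, SE 0.29, edgeR adjusted p = 0.007105), and Cox5a, of complex IV, at 31.1, 57.9 and 42.6 CPM in FI and 242 and 428 CPM in Diff (2.93, SE 0.40, edgeR adjusted p = 0.00732). The list summed to 9422 and 16902 CPM in Diff and to 11548 and 7592 CPM in WT_Cul, against 3536, 5026 and 3923 CPM in FI. Higher calls numbered 10, 9 and 2 without FI library 0, 1 or 2. In glycolysis, 9 of 21 tested genes were higher and 1 lower. Eno3, the muscle enolase, stood at 19.2, 18.1 and 16.3 CPM in FI and 316 and 1068 CPM in Diff (5.27, SE 0.59, edgeR adjusted p = 0.005198). Ldha, which makes lactate, stood at 109, 229 and 170.4 CPM in FI and 795 and 1006 CPM in Diff (2.41, SE 0.42, edgeR adjusted p = 0.0116), below the 3117 and 1714 CPM of WT_Cul. The gene that fell was Pfkfb3, a regulator of glycolytic flux, from 98.03, 47.7 and 53.5 to 12.6 and 5.99 CPM (fall of 2.84, SE 0.53, edgeR adjusted p = 0.0136). The Ldha call was lost without FI library 2 (edgeR adjusted p = 0.0601). Gapdh, Pgk1, Pgam1 and Eno1 belong to the genes near 0 in FI library 0, so their differences are uncertain. Of these 4 genes Eno1 is among the higher calls, at 4.4, 94.8 and 60.9 CPM in FI and 882 and 1244 CPM in Diff. The Eno1 call was lost without Diff library 0 or 1 or without FI library 1 or 2 (edgeR adjusted p = 0.0569, 0.0834, 0.0702 and 0.101, in that order). Pgk1 did not pass and stood at 5.68, 171 and 107 CPM in FI and 935 and 1168 CPM in Diff. Higher glycolysis calls numbered 9, 5 and 1 without FI library 0, 1 or 2 and 5 without Diff library 1, where the median was 1.10. Of 25 tested genes of fatty acid oxidation and uptake, 10 were higher and 3 lower. Acadl, a dehydrogenase of long-chain acyl-CoA, stood at 52.6, 52.9 and 47.99 CPM in FI and 306 and 482 CPM in Diff (2.94, SE 0.31, edgeR adjusted p = 0.00436). The fatty acid carriers Fabp4 and Cd36, which endothelial cells and adipocytes also express, fell from 114, 65.9 and 246 to 0.168 and 0.129 CPM and from 213, 106 and 352 to 0.168 and 1.34 CPM. Higher calls of this list numbered 5, 3 and 1 without FI library 0, 1 or 2, and lower calls 5 without Diff library 0. The limma voom test was not passed by Ldha, Pfkfb3, Eno1, Fabp4 and Cd36 (adjusted p = 0.0584, 0.0644, 0.302, 0.101 and 0.0604, in that order).

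Most sterol synthesis genes were higher in WT_Diff than in WT_FI, and their summed level in WT_Cul was below that in each of the 3 FI libraries. Of 19 tested genes, 13 were higher and 0 lower, with a median log2 difference of 2.17. The list summed to 1751, 2419 and 2308 CPM in FI, 1016 and 834 CPM in WT_Cul and 3780.4 and 6679 CPM in Diff. In the 2 other FI libraries it summed to 857 and 880.2 CPM, between the sums of the WT_Cul libraries. Cyp51, which demethylates lanosterol, stood at 71.1, 70.4 and 80.1 CPM in FI, 39.3 and 24.5 CPM in WT_Cul and 254 and 462 CPM in Diff (2.28, SE 0.34, edgeR adjusted p = 0.00826). Sqle, the squalene epoxidase, stood at 54.05, 70.5 and 70.8 CPM in FI, 91.5 and 61.96 CPM in WT_Cul and 264 and 321 CPM in Diff (2.17, SE 0.27, edgeR adjusted p = 0.005997). For these 2 genes both Diff libraries were above every FI and every WT_Cul library. Idi1 and Fdps are among the genes near 0 in FI library 0 and their differences are uncertain, and Hmgcs1 is listed at 0 in all libraries. Higher calls numbered 9, 7 and 5 without FI library 0, 1 or 2. The serum differed between the states by construction, as WT_Cul cells were in 20% fetal bovine serum and WT_Diff cells in 2% horse serum, and its part in these levels was not tested.

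**Figure D4:**
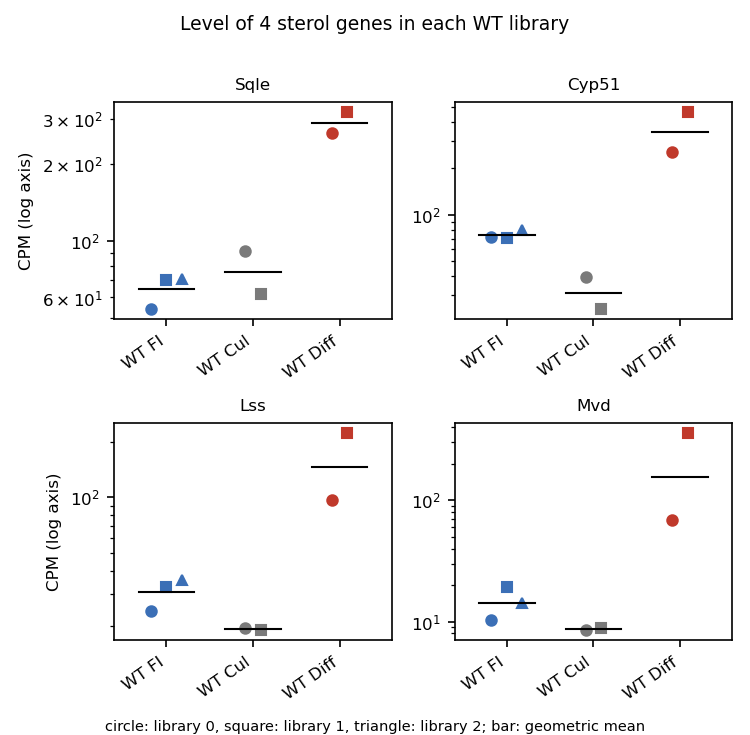
CPM on a log axis of 4 sterol genes in each WT library of freshly isolated (FI), proliferating (Cul) and differentiating (Diff) cells; symbols mark the library index and bars the geometric mean. Both Diff libraries lie above the FI and Cul libraries for each of the 4 genes.

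Ribosome biogenesis and p53 target genes were higher for many members, and fewer of autophagy or of NAD metabolism were called. Calls for autophagy and for NAD metabolism were near or below the shares over all genes tested, 17.4% higher and 20.2% lower. Of 23 tested ribosome biogenesis genes, 11 were higher and 0 lower (median log2 difference 1.44). Rrp12, a processing factor of ribosomal RNA, stood at 23.5, 31.3 and 19.4 CPM in FI, 97.7 and 94.3 CPM in Diff and 167 and 158 CPM in WT_Cul (1.96, SE 0.29, edgeR adjusted p = 0.00807). Higher calls numbered 4, 9 and 1 without FI library 0, 1 or 2 and 17 without Diff library 1. Of 19 tested p53 targets, 9 were higher and 2 lower. Bax, a mediator of apoptosis, stood at 31.4, 42.6 and 27.9 CPM in FI and 214 and 358 CPM in Diff (3.07, SE 0.35, edgeR adjusted p = 0.00529), and Ccng1, a cyclin induced by p53, at 41.5, 43.5 and 41.98 CPM in FI and 359 and 219 CPM in Diff (2.77, SE 0.30, edgeR adjusted p = 0.00483). Sesn1, a stress-induced inhibitor of mTORC1, fell from 111, 129 and 90.6 to 24.8 and 17.1 CPM (fall of 2.40, SE 0.32, edgeR adjusted p = 0.00693). Higher calls of p53 targets numbered 5, 5 and 3 without FI library 0, 1 or 2. Of 19 tested genes of autophagy and the lysosome, 4 were higher and 1 lower. Higher calls numbered 1 without FI library 1 or 2, and lower calls 3 without Diff library 1. Ctsd, the lysosomal protease cathepsin D, stood at 243, 256 and 248 CPM in FI and 1405 and 2208 CPM in Diff (2.86, SE 0.38, edgeR adjusted p = 0.00672). Ulk1, the kinase that starts autophagy, fell from 180.0, 153 and 144 to 51.2 and 57.3 CPM (fall of 1.55, SE 0.26, edgeR adjusted p = 0.0102). The Ulk1 call was lost against the 2 other FI libraries (edgeR adjusted p = 0.1095). Of 17 sirtuins and genes of NAD metabolism, 1 was higher and 2 lower, and Parp1, the poly(ADP-ribose) polymerase that consumes NAD, was the one higher, at 61.99, 87.5 and 59.1 CPM in FI and 256 and 143 CPM in Diff (1.52, SE 0.35, edgeR adjusted p = 0.0231). The Parp1 call was lost without FI library 0, 1 or 2 (edgeR adjusted p = 0.0697, 0.05196 and 0.0976, in that order). Of that list 5 were higher and 2 lower without Diff library 0, 3 higher and 4 lower without Diff library 1, and 0 higher without any 1 of the FI libraries. By limma voom Parp1 did not pass (adjusted p = 0.0664).

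Most extracellular matrix genes were lower in WT_Diff. Of 27 tested, 22 were lower and 1 was higher, with a median log2 difference of -2.81. Col15a1, a basement membrane collagen, stood at 1013, 941 and 1039 CPM in FI and 0.4402 and 0.129 CPM in Diff and fell by 11.75 (SE 0.89, edgeR adjusted p = 0.00375). Col6a3, a chain of the collagen VI of the satellite cell niche, stood at 309, 151 and 325 CPM in FI and 1.88 and 2.11 CPM in Diff and fell by 7.04 (SE 0.55, edgeR adjusted p = 0.003803). Tgfbi, a secreted adhesion protein, stood at 72.1, 47.98 and 77.4 CPM in FI and 0.634 and 0.998 CPM in Diff and fell by 6.33 (SE 0.47, edgeR adjusted p = 0.00375). The gene that rose was Timp1, an inhibitor of metalloproteinases, which stood at 5.63, 4.25 and 3.73 CPM in FI, 96.8 and 104 CPM in Diff and 189.7 and 84.3 CPM in WT_Cul (4.47, SE 0.30, edgeR adjusted p = 0.00375). The Timp1 call was lost against the 2 other FI libraries (edgeR adjusted p = 0.132). Many of these genes are also made by fibroblasts, whose marker list summed to 8966, 6682 and 6907 CPM in FI and 889 and 826 CPM in Diff, and its part in these falls was not tested. In the list of the IGF axis and imprinted growth genes, 7 of 16 tested were lower and 1 was higher, and without Diff library 0 11 were lower and 3 higher. Meg3, an imprinted long non-coding RNA of the Dlk1 locus, stood at 1774, 1862 and 1899 CPM in FI and 5.19 and 7.597 CPM in Diff and fell by 8.17 (SE 0.56, edgeR adjusted p = 0.00375). Dlk1 itself, an inhibitor of differentiation, fell by 5.06 from 13.9, 25.2 and 17.1 to 0.634 and 0.483 CPM, and Igf1, a growth factor of muscle, by 4.70 from 75.9, 64.8 and 102 to 2.07 and 4.15 CPM. All 3 were at a few CPM in both Diff libraries.

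The genes with the largest fold changes upward were at or near 0 in WT_FI. Adm2, a peptide hormone of the calcitonin family, and Gsta2, a glutathione transferase, had no fragment in any FI library and stood at 6.06 and 33.6 and 11.1 and 22.7 CPM in Diff. Against a floor of 3 fragments per library they were at least 199-fold and 169.6-fold higher. Gsta1, a near relative of Gsta2 whose fragments may be divided between the 2, stood at 0.0324, 0 and 0 CPM in FI and 16.8 and 21.3 CPM in Diff. Ctrb1, known as a pancreatic protease, stood at 0, 0.05897 and 0.0665 CPM in FI and 2.76 and 121 CPM in Diff, and Murc, a cavin of muscle caveolae, at 0.178, 0.118 and 0.133 CPM in FI and 45.2 and 268 CPM in Diff. Tnnc1, the troponin C of slow muscle, stood at 0.469, 0.324 and 0.0998 CPM in FI and 1.41 and 466 CPM in Diff, and Tmem151a, a transmembrane protein, at 0.0647, 0.118 and 0.0998 CPM in FI and 16.8 and 88.5 CPM in Diff. Log2 differences of these 5 were 10.10, 10.73, 10.03, 9.53 and 9.15 (edgeR adjusted p = 0.00386, 0.0132, 0.00411, 0.0242 and 0.00433). Murc and Tmem151a were well above FI in both Diff libraries, while Ctrb1 and Tnnc1 owed most of their level to Diff library 1. In WT_Cul, Adm2 stood at 18.7 and 16.5 CPM, Murc at 29.7 and 39.3 CPM and Tmem151a at 12.2 and 3.11 CPM. Adm2, Murc and Tmem151a were thus above FI in growing cells too. Gsta2 stood at 0.186 and 1.03 CPM there, Gsta1 at 0.497 and 3.35, Ctrb1 at 0.776 and 0.155 and Tnnc1 at 3.34 and 0.311 CPM. The Ctrb1 call was lost without FI library 1 or 2 (edgeR adjusted p = 0.0543 and 0.0503, in that order). The Tnnc1 call was lost without Diff library 1 or without FI library 0, 1 or 2 or against the 2 other FI libraries (edgeR adjusted p = 0.103, 0.0585, 0.0901, 0.0818 and 0.0581, in that order). Ctrb1 and Tnnc1 did not pass by limma voom (adjusted p = 0.0535 and 0.165, in that order).

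The 8 genes with the largest fold changes downward had no fragment in either Diff library. They were Rgs5, a pericyte regulator of G protein signalling, the neutrophil granule and calcium-binding proteins S100a9, Mpo, Ltf and Camp, the beta globin Beta-s of red cells, the olfactory receptor Olfr78 and the neuropeptide Y receptor Npy1r. Rgs5 stood at 547, 290.1 and 868 CPM in FI and was at least 11768-fold lower in Diff, against a floor of 3 fragments per library. S100a9 stood at 62.5, 100.5 and 329 CPM and Beta-s at 187, 33.97 and 94.8 CPM in FI, so they were at least 3399-fold and 2177-fold lower in Diff. For Mpo, Olfr78, Ltf, Camp and Npy1r the lower bounds of the fold ran from 1205 to 2021. Of the 8, Rgs5, Beta-s and the 4 neutrophil genes are known as markers of cells other than satellite cells. With limma voom the test was not passed by S100a9, Beta-s, Mpo, Olfr78, Ltf, Camp and Npy1r (adjusted p = 0.173, 0.117, 0.127, 0.0676, 0.216, 0.257 and 0.07301, in that order).

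Most markers of other cell types were lower in WT_Diff in every list, so they moved with the states. Endothelial markers were lower for 11 of 12 tested and summed to 555, 274 and 968 CPM in FI and 23.6 and 55.5 CPM in Diff. Of the fibroblast markers 12 of 14 were lower, and Col1a1, a defining collagen, stood at 1016, 554 and 691 CPM in FI and 4.21 and 6.86 CPM in Diff. Pericyte and smooth muscle markers were lower for 7 of 9 and summed to 5777, 5566 and 10173 CPM in FI and 252 and 1798 CPM in Diff, where Acta2, an actin that differentiating myoblasts also express, is a member. Macrophage and leukocyte markers were lower for 11 of 13, at 178, 175 and 409 CPM in FI and 17.3 and 12.7 CPM in Diff. Ptprc, which encodes the leukocyte antigen CD45, had 15.8, 8.197 and 25.7 CPM in FI and no fragment in Diff, and the macrophage markers Emr1, C1qa, C1qb and C1qc were also at 0 in both Diff libraries. Lymphocyte markers were lower for 8 of 9, at 35.2, 9.17 and 33.9 CPM in FI and 0.388 and 1.06 CPM in Diff. Schwann and neural markers were lower for 7 of 8, at 1228, 1248 and 1207 CPM in FI and 241 and 171 CPM in Diff. In the leukocyte list and in the Schwann list, 1 member each lay above every FI library in both Diff libraries. Neither was called higher, but against the 2 other FI libraries 1 member of each of these lists was. Erythroid markers were lower for 5 of 5, at 158, 15.8 and 49.2 CPM in FI and 0.337 and 0.129 CPM in Diff. By limma voom lower calls numbered 1 for endothelial, 8 for fibroblast, 6 for pericyte, 0 for leukocyte, 1 for lymphocyte, 6 for Schwann and 0 for erythroid markers. Without FI library 2, 7 fibroblast markers and 3 of 7 lymphocyte markers were lower. Lymphocyte calls numbered 5 of 9 without either Diff library and 5 of 7 without FI library 0, and erythroid calls 3 without Diff library 1. FI library 2 had the highest sums for endothelial, leukocyte and pericyte markers. The part of these cells in the genes lower in WT_Diff was not tested. The limma voom test was not passed by Ptprc (adjusted p = 0.0608).

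**Figure D5:**
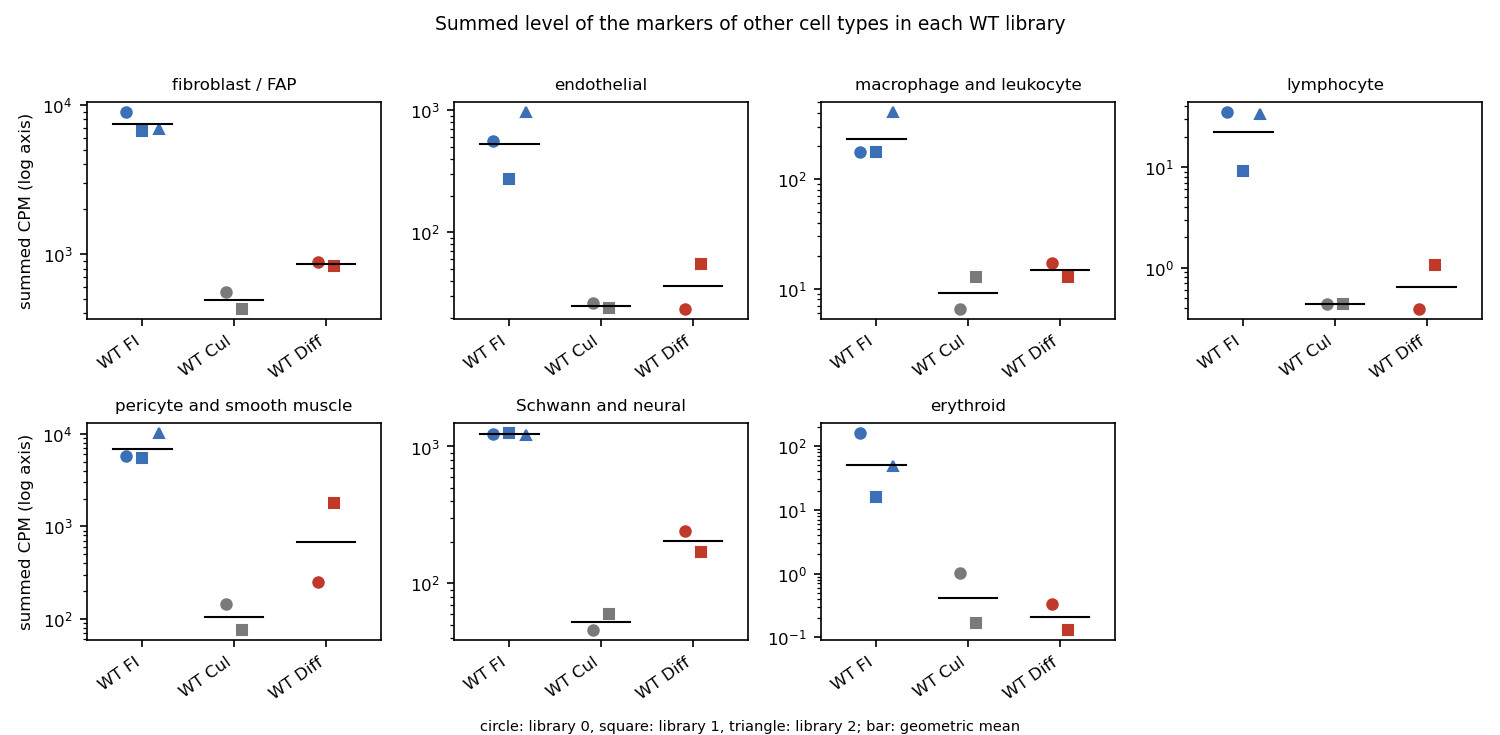
Summed CPM on a log axis of 7 lists of markers of other cell types in each WT library of freshly isolated (FI), proliferating (Cul) and differentiating (Diff) cells; symbols mark the library index and bars the geometric mean. Each list is higher in every FI library than in any Cul or Diff library, and the erythroid list falls from at least 15.8 to at most 0.337 CPM between FI and Diff.

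The same contrast in SIRT1mKO cells, which shares the tables but no library, gave 3776 genes higher in KO_Diff (23.7%) and 4007 lower (25.2%) of 15924 tested. Of 5860 genes called in WT and tested in KO, 5427 were called in the same direction and 1 in the opposite direction. The change from FI to Diff differed between WT and KO for 0 of 16403 genes by edgeR's interaction test, with 255 at an unadjusted p under 0.05 and 1 call by DESeq2. With the table and its index, which WT and KO share, as a block, which was added once the data had been seen, the number of calls stayed at 0, with 839 at an unadjusted p under 0.05. This does not show that the changes were alike. Sirt1 stood at 58.3, 34.7 and 40.9 CPM in KO_FI and 46.8 and 32.2 CPM in KO_Diff, and since 1 exon is deleted a level summed over the gene is no check of the genotype. Myog stood at 108, 41.7 and 18.4 CPM in KO_FI and 169 and 4041 CPM in KO_Diff libraries 0 and 1, and Myh3 at 1.83, 0.518 and 0.394 and 5.34 and 4392 CPM, the same order of library 0 and library 1 as in WT. Xist stood at 889 and 0.161 CPM in KO_Diff libraries 0 and 1, so library 1 of both genotypes lacked it. Cell cycle sums were 5085 and 1323 CPM in KO_Diff for the G2/M list, against 259.8, 111 and 174 CPM in KO_FI. Cdkn1c, at 163, 63.8 and 36.3 CPM in KO_FI and 1.63 and 27.02 CPM in KO_Diff, had a log2 difference of -2.61 in KO that did not pass (edgeR adjusted p = 0.155), and its difference from WT did not pass either (edgeR adjusted p = 0.9999). In the sarcomere list 26 of 41 tested genes were higher in KO_Diff, in the G2/M list 22 of 22, and in the quiescent list 17 of 23 were lower.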

How the data were processed

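RNA-seq of polyA RNA was used as the authors deposited it, in tables of 1 value per gene and library. Build mm9 and the tools TopHat, Bowtie and Cuffdiff are named in the submitters' processing notes, with versions and roles not given in the sources used here. Per the file headers, the tables hold estimated counts of fragments (raw fragments, not all whole), which were rounded for the tests, and FPKM, which the authors scaled within each table and which served only to compare genes within a library. Tables were joined on the gene identifier for 22518 of 22552 genes, and 34 genes without an OK status in all libraries of the FI and Diff tables were left out. The WT condition of the FI table (3 libraries) and of the Diff table (2 libraries) were normalised together by TMM. Genes kept by filterByExpr were tested with edgeR 4.0.16 (glmQLFit, robust, in R 4.3.3) for the 5 libraries alone, with Benjamini-Hochberg adjustment over all genes and a threshold of 0.05. CPM of every library was scaled to FI library 2. The test was also run on counts simulated with the spread that edgeR estimated from these libraries. Such counts follow the model of the test, so they cannot show whether it holds for libraries as unlike as the 2 Diff libraries. SE is on the log2 scale.

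The members and lists were chosen with earlier results of these data known. Named genes are Sirt1, Pax7, Myod1, Myf5 and Myog, up to 8 called genes per direction with the largest fold, non-overlapping libraries and a mean of at least 5 CPM in the higher group (predicted genes passed over), up to 4 members per list by smallest p, the cell type markers, and Xist and Ddx3y. Others are said to be named after their values were seen. Alternatives were RLE size factors, no filter, DESeq2 1.42.0, limma 3.58.1 voom with quality weights, glmTreat at a log2 fold change of 1, a spread shared over 14 libraries, other FI libraries and leaving out each library, and, added after seeing the data, the table index as a block in the test of WT against KO. Promoter windows come from RefSeq, GRCm38.p6. Tables were handled in Python 3.11.15 with pandas 2.3.3 and drawn with matplotlib 3.10.9. The 10 ChIP-seq and input samples were not analysed here.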

Additional observations from a re-analysis of the deposited data

How the results depend on the processing

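WT counts of 5915 calls (2734 higher, 3181 lower) were 2487 (1291 and 1196) by limma voom and 2967 (920 and 2047) by glmTreat, which asks for more than a 2-fold change, and ran from 2067 to 7836 (543 to 3440 and 1524 to 4396) when 1 library was left out. RLE factors, no filter, DESeq2, a shared spread and other sets of FI libraries kept them between 5328 and 8114. KO counts of 7783 (3776 and 4007) were 3934 (1500 and 2434) by glmTreat, with 2560 lower by voom, and ran from 4230 to 8656 (1702 to 4310 and 2528 to 4401) when 1 library was left out. The 0 calls of a difference between WT and KO became 1, a higher one, by DESeq2. The cause of the voom and DESeq2 differences was not tested. Of 161 genes followed by name, 145 were called. The direction and side of the threshold held for all 161 under RLE factors and without the filter. By voom 52 lost the call, without FI library 0, 1 or 2 in turn 10, 22 and 36, without Diff library 0 or 1 in turn 2 and 7, and against the 2 other FI libraries 20. The sign turned when 1 library was left out for Sirt1 (-0.83 to 0.11), Myog (-0.41 to 4.98), Myh3 (-0.42 to 9.10), Ckm (-5.03 to 3.87), Tnnt3 (-0.37 to 7.42), Gapdh (-1.59 to 0.065), Casq2 (-6.10 to 0.70), Actn3 (-3.38 to 0.92) and Igf2 (-2.90 to 2.37). It also turned by voom for Ckm (-0.75), Gapdh (0.81) and Igf2 (-0.30). Against the 2 other FI libraries it turned for Cdh15 (1.65), Gapdh (8.81, near 0 CPM in both of them) and Actn3 (1.87), and against all 5 for Gapdh (0.11) and Actn3 (0.43). No paired analysis was possible because the tables carry an index and not the replicate numbers of the labels, and the FI and Diff libraries of WT lie in different tables. For the difference between WT and KO, the table index shared by both genotypes was used as a replicate block, chosen after seeing the data, and gave 0 calls (0 higher and 0 lower).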

Other observations

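The genes described here were chosen after their values were seen. Asns, the asparagine synthetase, stood at 6.33, 3.63 and 4.76 CPM in FI, 262 and 679 CPM in Diff and 511 and 456 CPM in WT_Cul (log2 difference 6.58, SE 0.56, edgeR adjusted p = 0.00386). Psat1, an enzyme of serine synthesis, stood at 40.6, 67.8 and 42.2 CPM in FI, 436 and 558 CPM in Diff and 776 and 595 CPM in WT_Cul (3.31, SE 0.36, edgeR adjusted p = 0.00492). Slc7a11, the cystine carrier, stood at 1.89, 1.12 and 2.39 CPM in FI, 472 and 110.5 CPM in Diff and 135 and 454 CPM in WT_Cul (7.33, SE 0.78, edgeR adjusted p = 0.00475). All 3 were thus high in both cultured states. Trib3, a pseudokinase induced by stress, stood at 2.01, 0.826 and 1.63 CPM in FI and 34.1 and 131 CPM in Diff (5.79, SE 0.73, edgeR adjusted p = 0.00625).

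Fgf21, a secreted stress hormone, stood at 0.3397, 0.501 and 0.0998 CPM in FI and 4.07 and 245 CPM in Diff libraries 0 and 1. Most of its level thus came from Diff library 1, as for the sum of the contractile genes. Diff library 0 was also above every FI library, and without Diff library 1 the log2 difference was 3.68. The Fgf21 call was lost without FI library 1 or 2 (edgeR adjusted p = 0.0626 and 0.06098, in that order). Igf2, an imprinted growth factor of differentiating muscle, stood at 232, 193 and 228 CPM in FI and 28.9 and 1120.5 CPM in Diff and did not pass (edgeR adjusted p = 0.387). Diff library 0 was below every FI library and Diff library 1 above. Cst6, a protease inhibitor, stood at 0.162, 0.324 and 0.299 CPM in FI, 100.3 and 83.1 CPM in Diff and 53.4 and 101 CPM in WT_Cul (8.49, SE 0.43, edgeR adjusted p = 0.00375), so it was high in both cultured states. By limma voom Fgf21 did not pass (adjusted p = 0.0734).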
